A study of Caenorhabditis elegans with 12 samples.

Results

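The comparison described here sets *lpin-1(RNAi)* worms given glucose against *control(RNAi)* worms given none, that is, both perturbations of the study together against neither. Its members are the 3 libraries of each of these groups, 6 of the 12 in the series, and the 14697 of 46778 counted genes that passed a filter on low counts. The other 6 libraries, *control(RNAi)* worms with glucose and *lpin-1(RNAi)* worms without it, were used only to ask whether the joint difference is the sum of the single differences. All worms were N2, the standard wild-type strain of *Caenorhabditis elegans*, grown at 20 °C and fed RNAi bacteria from the egg stage with 10 mM IPTG, which switches on the double-stranded RNA. From day 1 of adulthood every group, controls included, was kept with 10 μM FUDR, which stops the production of progeny, and the glucose-rich plates carried 2% added glucose. RNA came from whole worms. Day 1 was the only adult age recorded for the libraries, the same in all 12. In such bulk samples, fewer cells of a type and less RNA per cell cannot be told apart. The labels number 3 replicates per group without saying that they were separate cultures, so the *p*-values measure the spread between these samples, which may be technical.

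*lpin-1* encodes lipin, a phosphatidic acid phosphatase that makes the diacylglycerol from which triacylglycerol and several phospholipids are built. In yeast and mammals, lipins also act in the nucleus on genes of lipid metabolism. Dietary glucose is turned into fatty acids in the worm intestine, the organ that also stores fat, makes yolk and faces the bacteria it feeds on.

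*lpin-1* lies on the reverse strand of chromosome V (WBcel235, 13650262 to 13654129). Its RNA was at 167, 163 and 144 CPM (counts relative to the TMM-scaled library size) in the control libraries and at 108, 105 and 122 CPM with both perturbations. The groups did not overlap. On the log2 scale the difference was −0.50 (standard error 0.10, adjusted *p* = 0.0012), so the transcript was lower but not absent. All adjusted *p*-values come from the quasi-likelihood test of edgeR, with the Benjamini-Hochberg method applied over the 14697 genes. Library totals ran from 21429646 to 30476972 counts in the controls and from 23259778 to 27863225 with both perturbations. Replicates of the controls spread more than those of the doubly perturbed worms, with a median SD of 0.22 against 0.109 on the log2 scale.

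Under both perturbations, 1334 genes (9.08% of those tested) were upregulated and 907 (6.17%) were downregulated, at a log2 fold change beyond 1 and an adjusted *p* under 0.05. The 2241 genes called in either direction were 15.2% of those tested, and in 2215 of them the 2 groups did not overlap, against 51.5% of all tested genes. With the adjusted *p* alone, 2863 genes (19.5%) were higher and 2738 (18.6%) lower. Upregulated genes were 59.5% of the calls with TMM scaling and 69.8% with scaling by library totals alone, which moved the median log2 fold change of all tested genes from 0.0096 to 0.16. The changes below are relative to the TMM scaling, and counts of called genes in the lists below are to be read beside the shares of 9.08% up and 6.17% down. Counts at an unadjusted *p* under 0.05 are to be read beside at least the 19.5% higher and 18.6% lower, since an unadjusted *p* never exceeds the adjusted one. Such counts alone do not show that a list moved.

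The largest increases belonged to genes that were almost silent in the controls. *Y41C4A.32*, a protein-coding gene on chromosome III of WBcel235 from 11721706 to 11723607, was at 4.20, 2.36 and 3.98 CPM in the controls and at 2668, 2861 and 2437 CPM with both perturbations. It rose by 9.58 on the log2 scale (standard error 0.24, adjusted *p* = 3.0e-11). The rule that named the largest changes required that the groups not overlap. *F48C1.9*, with at most 3 counts in each control library, reached 76.5, 79.1 and 86.6 CPM. Against controls set at 3 counts per library it was at least 639-fold higher, and computed in the same way *spp-9*, a saposin-like gene, was at least 207-fold, *F22E5.6* at least 135-fold and *spp-12* at least 110-fold higher. *nlp-39*, a neuropeptide-like gene, was at least 33.6-fold higher, *fipr-26* at least 29.8-fold and *C30H6.12*, which overlaps *T02D1.8* on the opposite strand, at least 41.2-fold. *WBGene00001706*, a pseudogene, was at least 91.0-fold higher. *sdz-35* and *F33H12.7* rose by 8.21 and 7.77 on the log2 scale.

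The largest decreases were led by the *pud* genes, named for proteins that are abundant in *daf-2* mutants. All 6 tested *pud* genes fell, with a median log2 fold change of −6.94. *pud-1.1* and *pud-1.2* are copies between which reads were divided, and summed they were at 806, 1264 and 1761 CPM in the controls and at 15.2, 7.88 and 10.0 CPM with both perturbations. On the log2 scale the sum fell by 6.86 (standard error 0.38, adjusted *p* = 1.9e-08), and the *pud-2* copies summed gave −6.94. *pud-3* and *pud-4*, which are not copies of these, gave −6.87 and −7.12. Outside this family, *C32H11.4* fell from 24.6, 29.7 and 19 CPM to 0.251, 0.102 and 0.245 CPM, and *asm-3*, an acid sphingomyelinase, by 6.12 on the log2 scale. *K12B6.11* was at least 21.8-fold lower. *F01D5.2* and *F01D5.3* overlap on the same strand, and *F01D5.3* fell by 5.94 on the log2 scale. *nhr-74*, a nuclear hormone receptor gene with divided reads in 6 libraries, fell by 6.03.

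**Figure D1:**
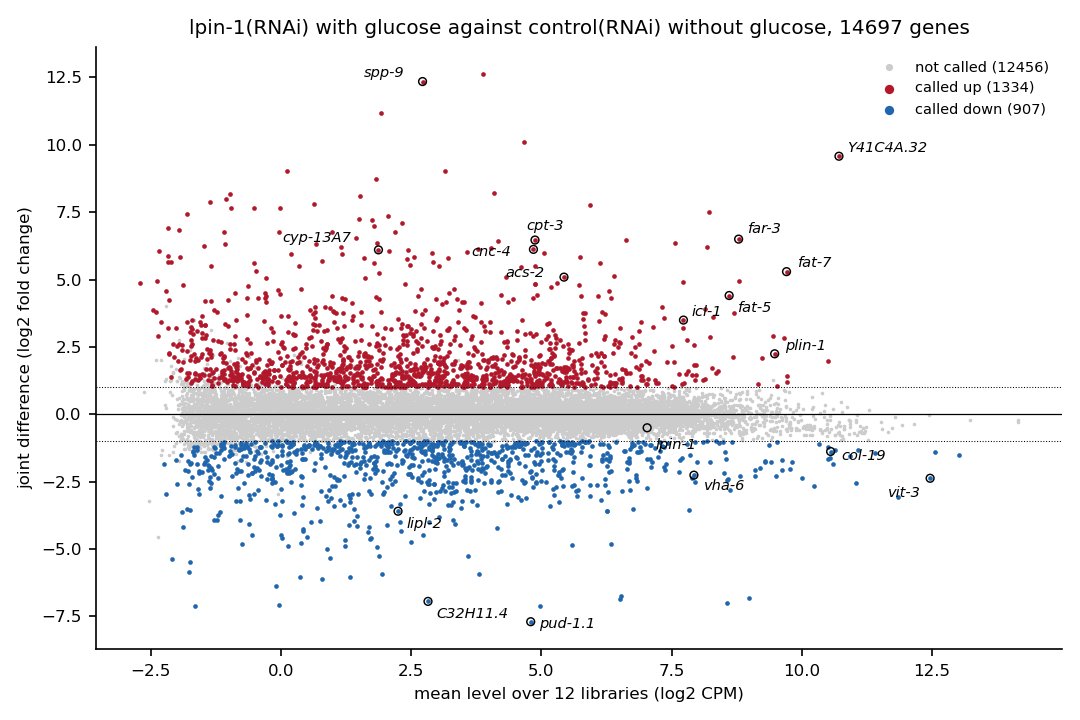
Joint difference of every tested gene (y axis, log2 fold change of *lpin-1(RNAi)* worms with glucose against *control(RNAi)* worms without) against its mean level over the 12 libraries (x axis, log2 CPM). Each point is a gene, red for the 1334 called up and blue for the 907 called down; dotted lines mark log2 values of 1 and −1, and *Y41C4A.32* combines a high level with a log2 fold change of 9.58.

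Lipid genes were among the abundant transcripts that changed most. Of the 7 fatty acid desaturase genes tested, 4 were upregulated and none downregulated, with a median log2 fold change of 1.43 against 0.0096 for all tested genes. *fat-7*, a stearoyl-CoA desaturase that makes oleic acid, has its locus on chromosome V (WBcel235, 7151353 to 7153146). It was at 50.2, 50.5 and 41.3 CPM in the controls and at 1854, 1927 and 1788 CPM with both perturbations. *fat-5*, which desaturates palmitic acid, went from 38.1, 40.2 and 44.6 CPM to 868, 872 and 867 CPM. For both genes every doubly perturbed library lay more than an order of magnitude above every control library. The log2 fold changes were 5.29 for *fat-7* (standard error 0.14, adjusted *p* = 3.7e-11) and 4.41 for *fat-5* (standard error 0.14, adjusted *p* = 1.9e-10; *fat-5* overlaps *twk-42* on the opposite strand). *fat-2*, which turns oleic into linoleic acid, rose by 1.99 from 522, 504 and 615 CPM to 2105, 2158 and 2251 CPM. *fat-6*, the close relative of *fat-7*, rose by 1.43. None of the 11 elongase genes was called with edgeR or DESeq2, and 5 had an unadjusted *p* under 0.05. Of the 6 genes of palmitate synthesis 1 was called, *pod-2*, the acetyl-CoA carboxylase. *pod-2* was at 390, 622 and 465 CPM in the controls and at 1028, 1144 and 1175 CPM with both perturbations (log2 fold change 1.18, adjusted *p* = 4.4e-04; it overlaps *W09B6.4* on the opposite strand).

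Proteins that carry lipids moved in both directions. *far-3*, a fatty acid and retinol-binding protein gene, was at 13.3, 10.8 and 23 CPM in the controls and at 1452, 1370 and 1434 CPM with both perturbations (log2 fold change 6.5, standard error 0.34, adjusted *p* = 1.3e-08). Its relative *far-5* lies on the opposite strand of the same locus and went the other way, from 11.43, 9.38 and 17.2 CPM to 2.55, 2.68 and 2.57 CPM. *far-4* rose by 3.84. Of the 8 *far* genes tested, 3 were upregulated and 1 downregulated. The 8 tested genes of intracellular lipid binding proteins had no call with edgeR or DESeq2, and 2 had an unadjusted *p* under 0.05.

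Yolk is lipoprotein made by the intestine for oocytes, and 4 of the 6 vitellogenin genes, which encode its proteins, were downregulated. *vit-1* was at 4101, 7958 and 6620 CPM in the controls and at 931, 518 and 796 CPM with both perturbations (log2 fold change −3.06, standard error 0.27, adjusted *p* = 1.3e-06). *vit-3* fell by 2.38 and *vit-5* by 1.52. *vit-2* and *vit-6*, the other abundant yolk genes, gave −0.21 (adjusted *p* = 0.41) and −0.28 (adjusted *p* = 0.34), and their groups overlapped. *vit-2* overlaps *C42D8.9* on the opposite strand. Reads of *vit-1*, *vit-2*, *vit-3* and *vit-5* were divided among genes in all 12 libraries, and the summed counts of *vit-3*, *vit-4* and *vit-5* fell by 1.69 (adjusted *p* = 7.6e-05). Of the 7 oocyte markers, 0 were called with edgeR or DESeq2 and 0 had an unadjusted *p* under 0.05, and their summed level was 4190 to 6186 CPM in the controls and 4974 to 5452 CPM with both perturbations.

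Among 18 genes of triacylglycerol synthesis and storage, 3 rose and none fell past the threshold. *plin-1*, the perilipin that coats lipid droplets, was at 244, 351 and 255 CPM in the controls and at 1308, 1398 and 1321 CPM with both perturbations, a rise of 2.24 on the log2 scale (standard error 0.16, adjusted *p* = 2.0e-07). *acl-12*, an acyltransferase gene, rose by 2.89 from 13.9, 16 and 18.1 CPM to 115, 122 and 121 CPM. *dgat-2*, a diacylglycerol acyltransferase that makes triacylglycerol, rose by 2.01 and overlaps other genes on both strands. The remaining 15 genes gave no call, so these 3 stand for themselves and not for the pathway. In the synthesis of phosphatidylcholine and its methyl donor, *ckb-2*, a choline kinase, rose by 2.68 from 20.9, 17.5 and 26.8 CPM to 133, 133 and 151 CPM. *sams-1*, the *S*-adenosylmethionine synthetase, was lower, at 247, 191 and 225 CPM against 436, 458 and 440 CPM. Its log2 fold change of −1.01 (adjusted *p* = 1.0e-05) was close to the threshold and became −0.86 with library totals alone, −0.99 without control replicate 2 and −0.96 without replicate 2 of the doubly perturbed worms. The other 13 of the 15 genes of this list were not called.

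Lipase genes moved in both directions. Of the 19 tested, 4 were upregulated and 5 downregulated. Among the 7 *lipl* genes, which encode lysosomal acid lipases, 4 fell and 1 rose. *lipl-2* went from 10.0, 10.51 and 14 CPM to 0.754, 0.646 and 1.47 CPM (log2 fold change −3.60, standard error 0.27, adjusted *p* = 2.7e-07), and *lipl-5*, the most abundant, from 384, 405 and 441 CPM to 113, 116 and 129 CPM. *lipl-1*, with divided reads in 1 library, and *lipl-3*, which overlaps *srw-107* on the same strand, fell by 4.89 and 2.96. *lipl-4* moved the other way, from 0.241, 0.0727 and 0.711 CPM to 3.31, 2.28 and 4.57 CPM (log2 fold change 3.31). *lips-10*, a lipase-related gene, rose from 8.2, 8.98 and 9.92 CPM to 87.5, 92.6 and 94.2 CPM (log2 fold change 3.34, standard error 0.15, adjusted *p* = 2.8e-09).

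Mitochondrial fatty acid oxidation had 7 upregulated and no downregulated genes among 29, with 14 higher and 7 lower at the adjusted *p* alone. *cpt-3*, a carnitine palmitoyltransferase gene that loads fatty acids for import into mitochondria, was at 1.35, 0.836 and 1.05 CPM in the controls and at 76.8, 101 and 105 CPM with both perturbations. This was a rise of 6.47 on the log2 scale (standard error 0.25, adjusted *p* = 8.9e-10). *acs-2*, an acyl-CoA synthetase that activates fatty acids for the same import, went from 2.41, 1.64 and 1.51 CPM to 63.0, 60.7 and 63.7 CPM (log2 fold change 5.09, standard error 0.17, adjusted *p* = 3.5e-10). *cpt-4* rose by 3.20 and *acs-1*, an abundant acyl-CoA synthetase gene that overlaps *hpo-26* on the opposite strand, by 1.53. The import and activation steps thus held the largest rises of this list. Peroxisomal oxidation was divided, with 2 of 16 genes up and 4 down. *acox-1.2* and *acox-1.3*, acyl-CoA oxidases with divided reads in 3 and 12 libraries, fell by 2.03 and 1.66, and *pmp-4*, a peroxisomal transporter gene that overlaps *T02D1.4* on the opposite strand, rose by 1.83. *ech-9*, which overlaps *WBGene00045179* on the same strand, fell by 1.89 at under 2 CPM, and its adjusted *p* rose to 0.14 without control replicate 1, 0.064 without replicate 1 of the doubly perturbed worms and 0.10 without their replicate 2.

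Of 16 regulators of lipid genes, 3 were upregulated. *nhr-80*, a nuclear receptor known for controlling *fat-6* and *fat-7*, rose by 1.26 from 7.62, 9.12 and 9.21 CPM to 21.1, 20.6 and 20.7 CPM. *mxl-3*, a repressor of lysosomal lipase genes, rose by 1.19. *pqm-1*, a zinc-finger factor, rose by 1.13 and was at 0.996 without replicate 3 of the doubly perturbed worms. *nhr-49*, a nuclear receptor known for controlling *fat-7* and *acs-2*, was at 98.7, 102 and 96.6 CPM in the controls and at 188, 182 and 188 CPM with both perturbations, with a log2 difference of 0.91 (adjusted *p* = 1.5e-05) that fell short of the threshold on fold change, and of 1.06 with library totals alone.

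**Figure D2:**
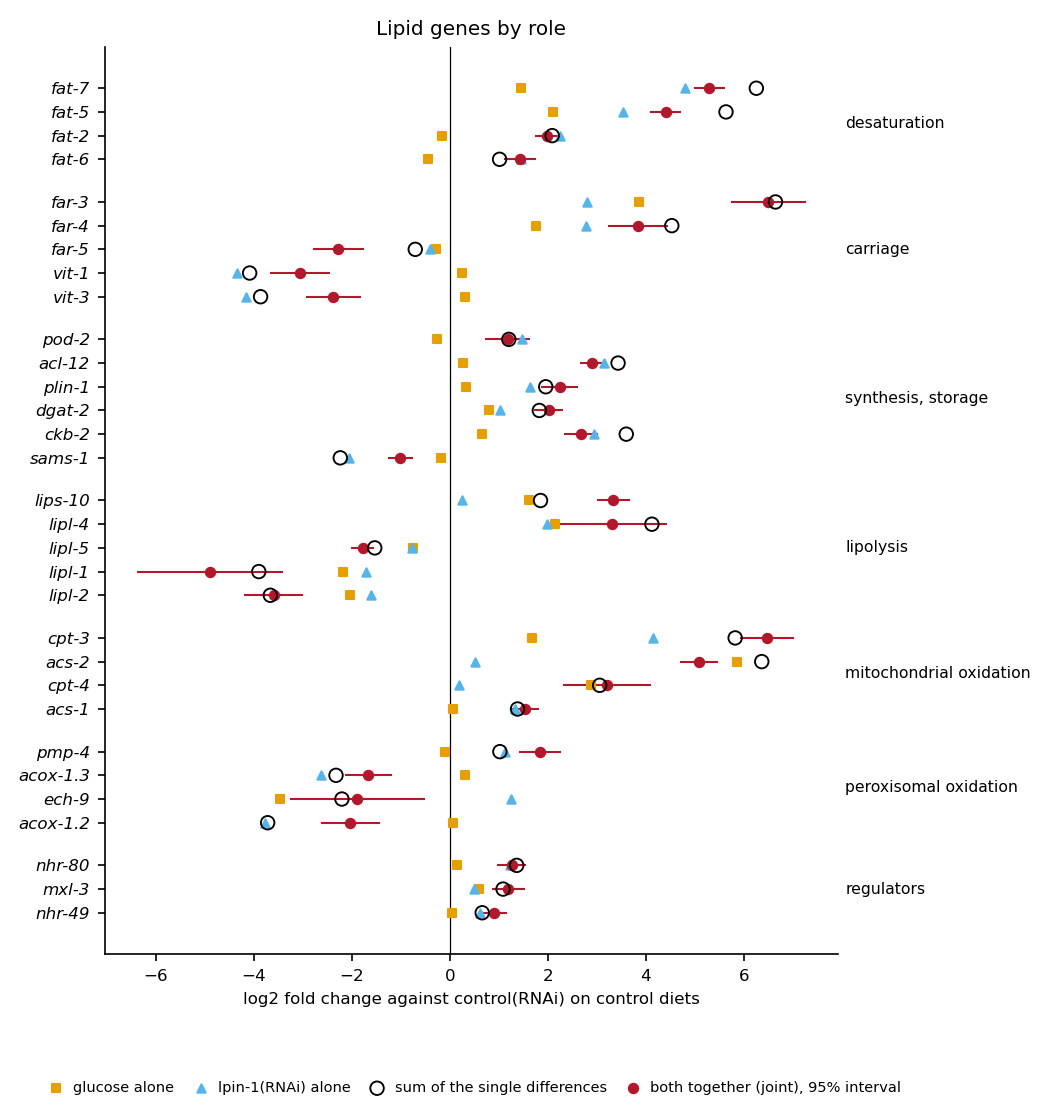
Log2 fold changes against *control(RNAi)* worms on control diets (x axis) for lipid genes grouped by role (y axis). Red points with lines are the joint difference and its 95% interval, orange squares and blue triangles the single differences, and open circles their sum; the joint difference of *fat-7* and *fat-5* lies below the sum, and that of *lips-10* above it.

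Few enzymes of central carbon metabolism were called. None of 20 glycolytic genes passed the threshold with edgeR or with DESeq2, and 3 had an unadjusted *p* under 0.05. The same held for the 23 Krebs cycle genes, of which 7 had an unadjusted *p* under 0.05. *aldo-2*, an aldolase gene that overlaps *F01F1.3* on the opposite strand, gave 0.27 (adjusted *p* = 0.058), and *aco-2*, the aconitase gene, which overlaps *C06G4.4* on the opposite strand, 0.19 (adjusted *p* = 0.30). Of 7 genes of gluconeogenesis and the glyoxylate cycle, 1 was called, *icl-1*, the enzyme of the glyoxylate cycle that allows carbohydrate to be made from fat. It was at 37.5, 53.5 and 45.8 CPM in the controls and at 484, 505 and 556 CPM with both perturbations (log2 fold change 3.50, standard error 0.22, adjusted *p* = 5.4e-08). *pck-1*, which starts gluconeogenesis, gave −0.31 (adjusted *p* = 0.10). Of 13 genes of glycerol synthesis and aquaglyceroporins, 3 rose and 3 fell. *gpdh-2* and *gpdh-1*, which encode enzymes of glycerol synthesis, rose by 1.32 and 1.17, *gpdh-2* from 176, 178 and 174 CPM to 458, 416 and 439 CPM. *aqp-2* rose by 1.56, while *aqp-4* and *aqp-1* fell by 1.97 and 1.5, all 3 being aquaporins, and *aqp-4* overlaps *marc-1* on the same strand. On the opposite strand, *aqp-1* overlaps *ctsa-3.1* and *gpdh-1* overlaps *gadr-6*. Among 14 trehalose and glycogen genes, *tps-1*, a trehalose-6-phosphate synthase, rose by 1.51, *tre-5*, a trehalase gene that overlaps *sptl-1* on the opposite strand, by 1.42, and *aagr-1*, an acid alpha-glucosidase gene that overlaps *D2096.6* on the opposite strand, fell by 2.36.

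Cuticle collagens were among the families with the most downregulated members. Of 131 collagen genes tested, 42 were downregulated and 12 upregulated, with a median log2 fold change of −0.74, and their summed level was 45330 to 52700 CPM in the controls and 14030 to 18470 CPM with both perturbations. *col-19*, the adult-specific collagen, went from 2428, 2631 and 2144 CPM to 1069, 810 and 884 CPM (log2 fold change −1.38, standard error 0.14, adjusted *p* = 5.2e-06; it overlaps *ZK1193.2* on the opposite strand). *col-124* fell by 2.56, from 4423, 4725 and 3866 CPM to 906, 631 and 664 CPM, and *col-43* and *col-110* by 4.36 and 4.78 at low levels. *col-124* had divided reads in 4 libraries and overlaps *qns-1* on the opposite strand, as *col-110* does *nspg-10*. For *col-19* and *col-124* all 3 doubly perturbed libraries lay below all 3 controls.

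The upregulated collagens included those of the cuticle furrows. Of the 6 furrow collagen genes *dpy-2*, *dpy-3*, *dpy-7*, *dpy-8*, *dpy-9* and *dpy-10*, a set singled out after the values were seen, 5 were upregulated, with a median of 2.38. *dpy-10* was at 5.45, 3.09 and 6.03 CPM in the controls and at 20.7, 11.9 and 33.5 CPM with both perturbations (log2 fold change 2.19, adjusted *p* = 0.0025; it overlaps *T14B4.19* on the same strand). *dpy-3* rose by 3.74 and *dpy-7* by 2.75. In both groups these 3 genes were lowest in replicate 2 and highest in replicate 3. Of the 7 markers of larval moulting, 4 were called up and none down, and their summed level was 74.6 to 108 CPM in the controls and 215 to 299 CPM with both perturbations. *mlt-11*, a protease inhibitor needed for moulting, went from 3.38, 3.56 and 8.33 CPM to 42, 29.2 and 55.2 CPM (log2 fold change 3.05), *noah-2* rose by 2.22 and *ptr-4* by 2.40. The part of these moulting transcripts in the collagen differences was not tested.

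Several small heat shock protein genes rose. Of 14 small heat shock protein genes, 9 were upregulated and none downregulated, with a median log2 fold change of 1.44. The 9 included copies that share reads, and DESeq2 called 8 genes of this list. The *hsp-16.1* copy WBGene00002015 had 14, 12 and 0 counts with both perturbations, and its call was lost in 4 of the 12 fits without a library. The summed copies of *hsp-16.48* were at 12.4, 12.9 and 17.3 CPM in the controls and at 101, 107 and 92.7 CPM with both perturbations (log2 fold change 2.82, standard error 0.19, adjusted *p* = 9.8e-08), and the summed *hsp-16.1* and *hsp-16.11* rose by 3.21. *hsp-43* rose by 2.12 from 101, 108 and 99.7 CPM to 398, 536 and 409 CPM. Of 20 genes of the unfolded protein response of the endoplasmic reticulum, 15 were higher and 1 lower at the adjusted *p* alone, but only *ckb-2* and *dnj-27*, a chaperone of the endoplasmic reticulum, passed the fold threshold, the latter with 1.27 (adjusted *p* = 6.3e-07). The 11 genes of the mitochondrial unfolded protein response had no call with edgeR or DESeq2, with 7 at an unadjusted *p* under 0.05, and *hsp-6*, its usual reporter, gave −0.25 (adjusted *p* = 0.27). Of 14 antioxidant and metal genes, 4 rose and 2 fell. *msra-1*, a methionine sulfoxide reductase that overlaps *insc-1* on the opposite strand, rose by 1.92 and *mtl-1*, a metallothionein, by 2.67.

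Defence genes formed families with opposite directions. Antimicrobial peptide genes had 16 of 39 up and 4 down, with a median of 0.49. *cnc-4*, a caenacin, was at 0.868, 0.364 and 1.09 CPM in the controls and at 49.5, 55.7 and 53.2 CPM with both perturbations (log2 fold change 6.12, standard error 0.24, adjusted *p* = 1.1e-09), and *nlp-25* rose by 5.98. Of 21 *pals* genes, a family known for the response to intracellular pathogens, 10 were upregulated and 1 downregulated. *pals-14* went from 0.193, 0.109 and 0.209 CPM to 9.96, 11.3 and 6.77 CPM (log2 fold change 5.77) and *pals-6* rose by 4.66. C-type lectin genes went down more than up, with 44 of 104 downregulated, 2 of them copies with the same counts, and 14 upregulated, among them *clec-227* at −4.67. Saposin-like genes had 4 of 23 up and 7 down, and lysozyme genes 2 of 12 up and 3 down. *ilys-5*, an invertebrate-type lysozyme, fell from 593, 548 and 783 CPM to 103, 69.9 and 101 CPM (log2 fold change −2.81, standard error 0.18, adjusted *p* = 4.7e-08). *spp-1*, an antimicrobial saposin-like gene, fell by 3.12 and *lys-8* by 1.35, and they overlap *T07C4.3* and *C17G10.13* on the opposite strand, while *lys-3* rose by 2.58. Of the 10 *dod* genes, named as downstream of the insulin-regulated factor DAF-16, 4 fell and 1 rose, and *dod-24* went from 52.8, 32.3 and 37.9 CPM to 1.21, 0.850 and 1.18 CPM (log2 fold change −5.25).

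Genes of the gut lumen were divided between rising and falling proteases. Of 21 aspartyl and cysteine protease genes, 3 rose and 8 fell. *asp-17* went from 2.99, 4.25 and 4.23 CPM to 74.4, 87.7 and 80.6 CPM (log2 fold change 4.39, standard error 0.19, adjusted *p* = 2.3e-09), *cpr-1* rose by 3.57 and *cpr-3* by 2.80. *asp-1*, the most abundant of the intestinal markers, fell by 1.78 from 1393, 1527 and 1510 CPM to 427, 384 and 478 CPM. Of the 5 intestinal markers, 3 were downregulated (*asp-1*, *mtl-2* and *ifb-2*, the last with divided reads in 12 libraries), and at the adjusted *p* alone 4 were lower and 1 higher. The summed level of the 5 was 1579 to 1738 CPM in the controls and 471 to 575 CPM with both perturbations, most of it from *asp-1*. *elt-2*, the transcription factor that defines the intestine, was higher, at 30.2, 25.4 and 26.7 CPM against 13.5, 13.5 and 15.6 CPM (log2 fold change 0.95, adjusted *p* = 5.7e-05, and 1.1 with library totals alone). The intestinal markers therefore did not move as a block. Their part in the lipid, yolk and defence differences was not tested.

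Detoxification families held calls in both directions, while nuclear hormone receptor and F-box genes were called up more often than down. Cytochrome P450 genes had 16 of 60 up and 10 down, UDP-glycosyltransferase genes 15 of 61 up and 18 down, and glutathione *S*-transferase genes 6 of 43 up and 12 down. *cyp-13A7* was at least 55.2-fold higher and *cyp-13A5* rose by 4.27, whereas *gst-10*, with divided reads in 1 library, fell from 88.4, 98.3 and 92.1 CPM to 8.25, 10.7 and 9.95 CPM (log2 fold change −3.27, standard error 0.12, adjusted *p* = 6.9e-10). Nuclear hormone receptor genes had 35 of 184 up and 5 down, with a median of 0.45. F-box genes had 45 of 237 up, 42 of them with different counts, and 4 down, with a median of 0.035, and *fbxa-158* was at least 42.3-fold higher. Of 25 insulin-like peptide genes, 5 rose and 1, *ins-33*, fell, by 2.82. Among those that rose, *ins-20* and *ins-10* were under 1 CPM in every library of both groups. The summed level of the 25 overlapped, at 36.2 to 42.5 CPM in the controls and 38.1 to 41.6 CPM with both perturbations. *akt-2*, a kinase of the insulin pathway, rose by 1.26. Cytosolic ribosomal protein genes were lower by a small amount, with 77 of 79 lower at the adjusted *p* alone, none higher and a median of −0.58 (−0.43 with library totals alone). Their summed level was 120000 to 130400 CPM in the controls and 78760 to 85380 CPM with both perturbations. *rpl-29* was the only one past the fold threshold, at −1.03, and the call was lost without control replicate 3 (−0.80) and with library totals alone (−0.88). The 33 proteasome genes had no call with edgeR or DESeq2, and 6 had an unadjusted *p* under 0.05.

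Whether the joint difference is the sum of the single differences was asked on the log2 scale. A sum on that scale is a product of folds, so the answer can differ for differences in CPM, which were not tested. The departure is the joint difference minus the sum of the difference with glucose alone and the difference with *lpin-1* RNAi alone, and it uses all 12 libraries. Over all tested genes, 236 (1.61%) had a departure at an adjusted *p* under 0.05, and departures beyond 1 on the log2 scale were higher than the sum in 0.81% of tested genes and lower in 0.374%. Of the 2241 genes called in the joint comparison, 166 (7.41%) had a departure, 22 of them with a joint difference larger than the sum and 144 with a smaller one. That count was 275 with DESeq2, 108 without *control(RNAi)* glucose replicate 1 and 103 without replicate 1 of the doubly perturbed worms. With the replicate number added to the model as a block, the count was 279, and 104 departures over all tested genes were below −1. The 55 departures below −1 over all tested genes were 103 with DESeq2, 87 without a filter, 128 without *lpin-1(RNAi)* control-diet replicate 2 and 33 without *control(RNAi)* glucose replicate 3, and the departures above 1 were 75 without replicate 1 of the doubly perturbed worms. At an unadjusted *p* under 0.05 there were 635 called genes (28.3%, against 9.94% of all tested genes). The absence of a call does not show additivity, since the 95% interval of the departure lay within 1 log2 unit of 0 in 787 of the 2241 genes, or 35.1%, against 63.1% of all tested genes, and within 0.5 units in 92, or 4.1%, against 27.8%. For the remaining called genes the interval reached beyond 1 log2 unit in at least 1 direction.

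Taken over all called genes, the joint difference was slightly smaller than the sum. The median departure, counted as negative where the joint difference falls short of the sum, was −0.19 on the log2 scale (quartiles −0.65 and 0.22), and 1414 of the 2241 genes were below 0. Over all tested genes the median was −0.027. For upregulated genes the medians were 0.20 with glucose alone, 1.72 with *lpin-1* RNAi alone, 1.92 for their sum and 1.71 for the joint difference. For downregulated genes they were −0.43, −1.48, −1.93 and −1.71. These medians share the control libraries, so they are given side by side without a test. Since the control libraries spread more than the doubly perturbed ones, genes and directions were also taken from 2 replicate numbers and the departure from the third, which gave medians of −0.24, −0.13 and −0.23.

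**Figure D3:**
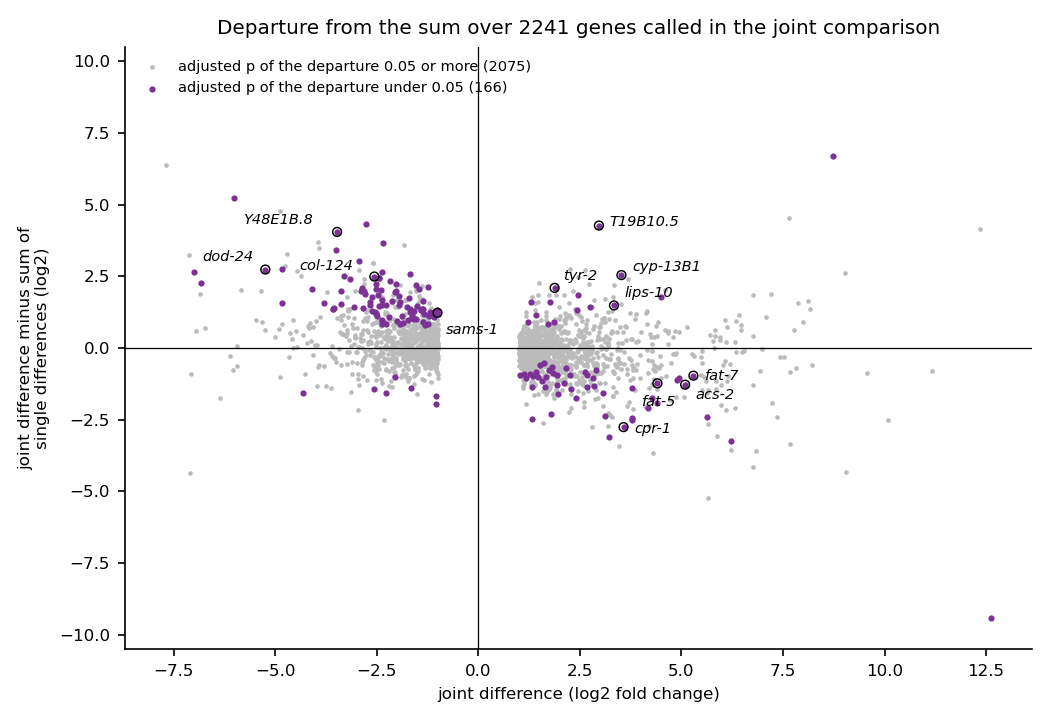
Departure from the sum of the single differences (y axis, log2) against the joint difference (x axis, log2 fold change) for the 2241 genes called in the joint comparison. Purple marks the 166 genes whose departure had an adjusted *p* under 0.05; most of them, 144, lie on the side where the joint difference is smaller than the sum, and the point at the lower right is 1 of 2 *hsp-16.48* copies with divided reads.

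Several lipid genes reached less than the sum on the log2 scale. *fat-7* was at 131, 111 and 149 CPM with glucose alone and at 1204, 1338 and 1400 CPM with *lpin-1* RNAi alone, and its joint difference of 5.29 was 0.96 below the sum of 6.26 (adjusted *p* = 0.0086). *fat-5* was 1.23 below the sum (adjusted *p* = 0.0025). In CPM, both genes were higher in every library with both perturbations than in any library with either alone. *acs-2* was at 102, 101 and 115 CPM with glucose alone, more than with both perturbations, and at 2.98, 2.80 and 1.86 CPM with *lpin-1* RNAi alone, and its departure was −1.28 (adjusted *p* = 0.013). In the small chaperone *hsp-43* the departure was −1.21 (adjusted *p* = 0.0045), with 935, 1067 and 968 CPM with *lpin-1* RNAi alone. *cpr-1*, on chromosome V from 11975551 to 11976756, was at 18.9, 20.2 and 21.9 CPM in the controls, at 110, 123.7 and 148 CPM with glucose alone, at 256, 291 and 240 CPM with *lpin-1* RNAi alone and at 227, 245 and 254 CPM with both. The doubly perturbed libraries of *cpr-1* thus overlapped those with *lpin-1* RNAi alone, and the departure was −2.76 (standard error 0.16, adjusted *p* = 6.2e-06).

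Genes whose decrease was smaller than the sum were often cuticle collagens. Among the 42 downregulated collagens, 24 had a departure, all of them with a joint decrease smaller than the sum. Their medians over the 42 genes were −0.27 with glucose alone, −2.70 with *lpin-1* RNAi alone and −1.81 with both. *col-124* was at 130, 232 and 165 CPM with *lpin-1* RNAi alone, below all libraries with both perturbations, and had a departure of 2.49 (adjusted *p* = 6.5e-04). For *col-19* the departure was 1.36 (adjusted *p* = 0.0037). *sams-1* was likewise lower with *lpin-1* RNAi alone, at 93.8, 122 and 105 CPM, and had a departure of 1.23 (adjusted *p* = 0.0014). *pck-1* stood at 24, 29.5 and 20.2 CPM with *lpin-1* RNAi alone, and its departure was 1.26 (adjusted *p* = 0.0062). *dod-24* fell by 4.99 with glucose alone, 3.00 with *lpin-1* RNAi alone and 5.25 with both, a departure of 2.74 (adjusted *p* = 0.0017). *Y48E1B.8*, which overlaps *clec-145* on the opposite strand, had a departure of 4.05 (adjusted *p* = 0.0034). It was at 0.155, 0.0905 and 0.0531 CPM, or at most 5 counts per library, with *lpin-1* RNAi alone and at 3.18, 1.46 and 0.978 CPM with both.

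In 22 called genes the joint difference exceeded the sum. *T19B10.5*, on chromosome V of WBcel235 from 11234650 to 11237427, was at 9.84, 11.3 and 12.7 CPM in the controls, at 14.5, 14 and 17.8 CPM with glucose alone and at 3.13, 3.20 and 3.77 CPM with *lpin-1* RNAi alone, but at 122, 58.8 and 84.6 CPM with both perturbations. The 3 doubly perturbed libraries lay above all other 9, and the departure was 4.27 (standard error 0.32, adjusted *p* = 5.5e-05). *tyr-2*, a tyrosinase gene, was at 8.01, 8.29 and 9.0 CPM in the controls and at 4.75, 7.42 and 6.38 CPM with *lpin-1* RNAi alone, but at 33.6, 30.6 and 28.7 CPM with both, a departure of 2.1 (adjusted *p* = 3.9e-04). *cyp-13B1*, a cytochrome P450 gene, rose by 2.38 with glucose alone, gave −1.41 with *lpin-1* RNAi alone and rose by 3.52 with both (departure 2.54, adjusted *p* = 0.0087). *lips-10* was at 21.2, 28.1 and 33.4 CPM with glucose alone and at 10.8, 11.2 and 9.88 CPM with *lpin-1* RNAi alone, and its joint rise exceeded the sum by 1.49 (adjusted *p* = 0.0019). In *T19B10.5*, *tyr-2* and *cyp-13B1* the fitted difference with *lpin-1* RNAi alone was below 0 and the joint difference above 0. The differences with *lpin-1* RNAi alone are given here without a test, so a reversal of direction is not established for each gene.

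**Figure D4:**
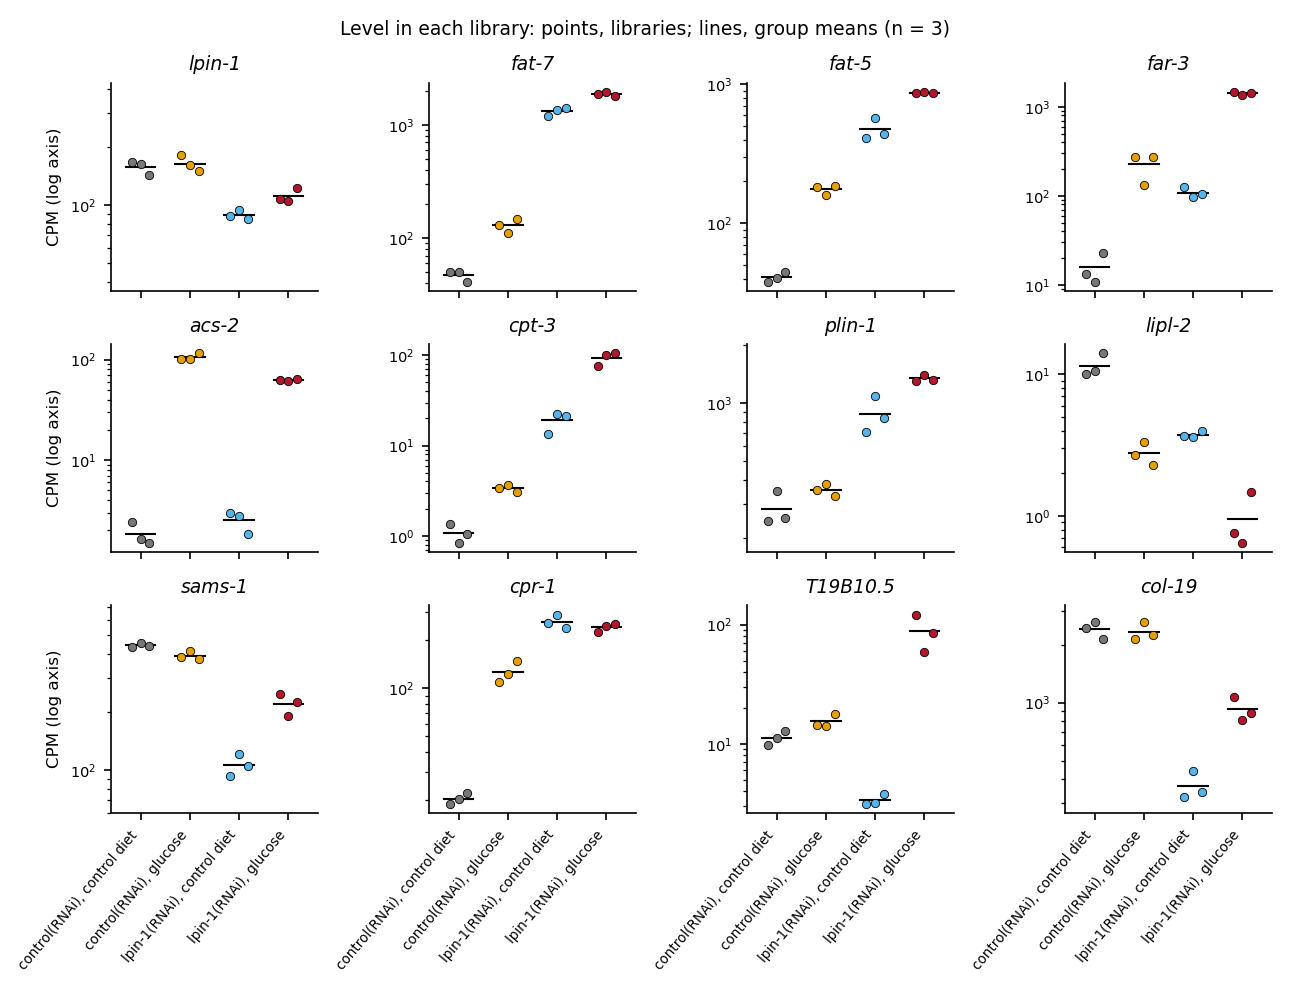
Level (y axis, CPM on a log axis) of 12 genes in each of the 12 libraries, by group (x axis). Points are libraries and lines the means of 3; *T19B10.5* is high only with both perturbations, *acs-2* rises with glucose on either RNAi, and *col-19* is lowest with *lpin-1* RNAi alone.

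Other genes stayed near the sum, and for these the interval of the departure is given. For *far-3*, which was at 275, 132 and 273 CPM with glucose alone and at 124.3, 97.3 and 104 CPM with *lpin-1* RNAi alone, the departure was −0.15 (95% interval −0.98 to 0.69). For *fat-2* the interval was −0.40 to 0.20, for *dgat-2* −0.19 to 0.56, for *plin-1* −0.19 to 0.77 and for *lipl-5* −0.54 to 0.05. *vha-6*, the intestinal subunit of the vacuolar proton pump, fell from 440, 429 and 439 CPM to 93.2, 85.2 and 94.7 CPM with both perturbations, and its departure of −0.01 had an interval of −0.25 to 0.23. In these genes a departure of 1 log2 unit lay outside the interval. *icl-1* and *cpt-3* had departures of 0.72 and 0.64 that missed the threshold (adjusted *p* = 0.36 and 0.60), with intervals of 0.10 to 1.34 and −0.08 to 1.37.

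Glucose alone upregulated 199 genes (1.35% of those tested) and downregulated 262 (1.78%), and *lpin-1* RNAi alone 1469 (10.0%) and 824 (5.61%). Of these, 65 were called in both single comparisons in opposite directions, and in the joint comparison 24 of the 65 were called and 38 lay between −1 and 1 on the log2 scale. For the 4 with the largest such differences the joint value lay between the single ones. *C17B7.10* gave −4.18 with glucose alone and 3.28 with *lpin-1* RNAi alone, and −1.33 with both (adjusted *p* = 0.14). *T28A11.19* gave −2.67, 3.49 and −0.55 (adjusted *p* = 0.22), and *acdh-2*, an acyl-CoA dehydrogenase gene that overlaps *ins-13* on the same strand, gave 3.53, −4.32 and 1.36 (adjusted *p* = 0.061). The joint groups of these 3 genes overlapped. *Y71G12B.2*, which overlaps 2 genes on the opposite strand, gave −2.71, 3.04 and 2.34 (adjusted *p* = 1.1e-04).

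**Figure D5:**
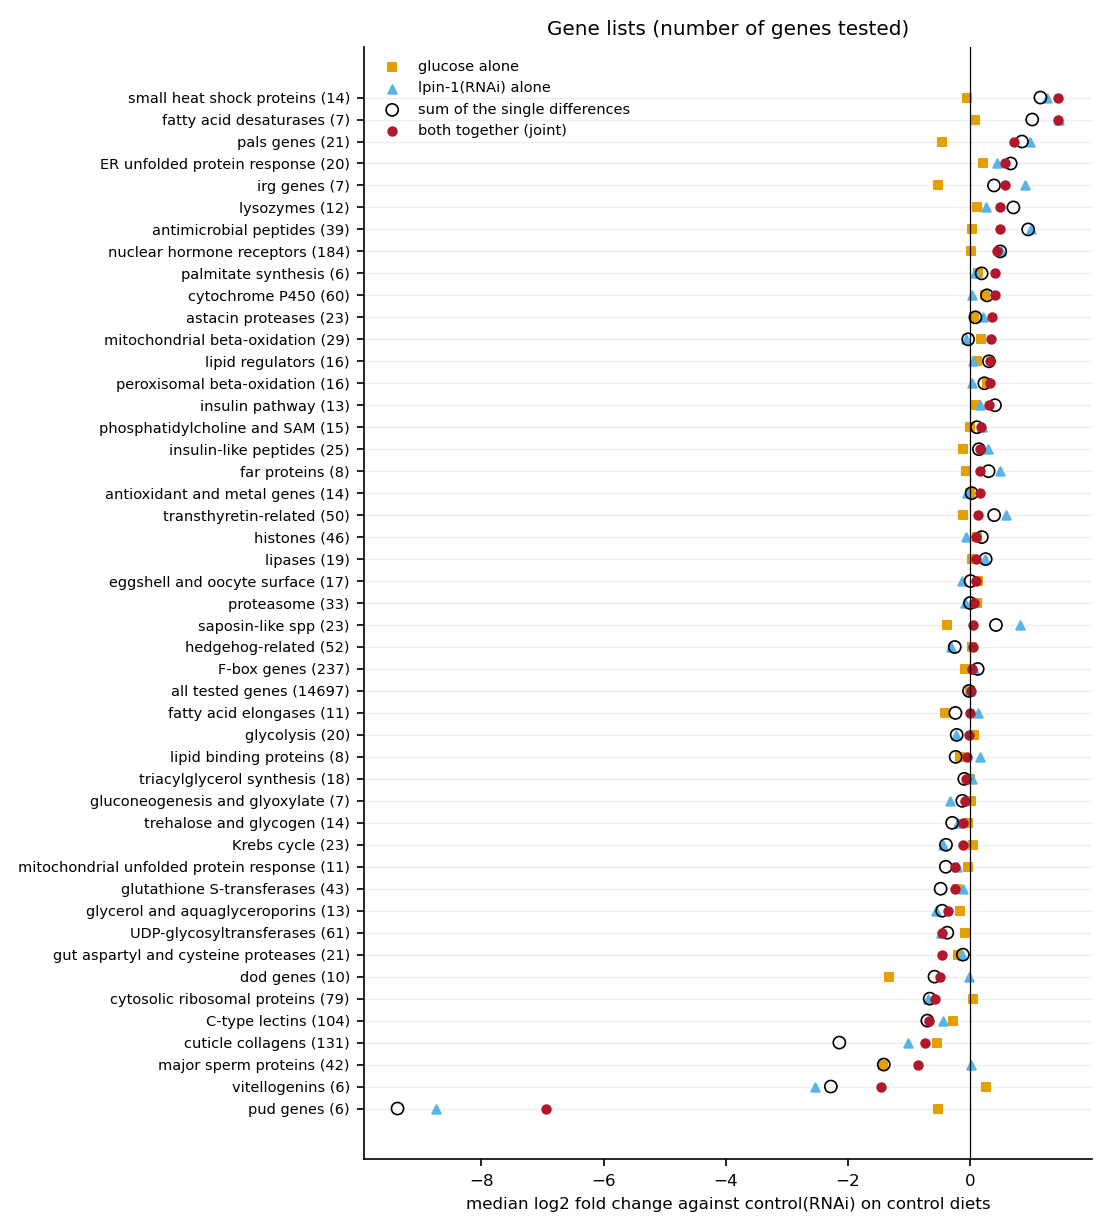
Median log2 fold change of each gene list against *control(RNAi)* worms on control diets (x axis), with the number of genes tested in parentheses (y axis). Orange squares are glucose alone, blue triangles *lpin-1* RNAi alone, open circles the median of the sums and red points the joint difference; for cuticle collagens the joint median of −0.74 lies nearer 0 than the median sum of −2.14.

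Side by side, the gene lists differed in which single difference was the larger. The median of the desaturase genes was 0.078 with glucose alone and 1.45 with *lpin-1* RNAi alone, and that of the vitellogenins 0.26 and −2.54. Markers of larval moulting showed the other order, with medians of 1.5 with glucose alone and −0.066 with *lpin-1* RNAi alone, beside 1.84 with both. The 12 upregulated collagens had medians of 2.15, −0.28 and 2.35 in the same order. For cytosolic ribosomal protein genes the medians were 0.050, −0.70 and −0.58. For *icl-1* glucose alone gave 2.30 and *lpin-1* RNAi alone 0.47, and for *gpdh-1* they gave 2.71 and −1.09 beside 1.17 with both.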

How the data were processed

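RNA of whole worms was sequenced in 12 libraries of 4 groups from a stranded kit. The authors deposited unnormalized expected counts for each gene in each library. The submitters' processing notes name STAR 2.7.0e, RSEM 1.3.1, DESeq2 1.22.2 and the build WBcel235, and how strand was used in counting is not given in the sources used here. RSEM divides reads that match several genes among them, and 1903 genes held a fractional count somewhere, so divided reads and overlaps are given where the genes they bear on are described. Counts were rounded to whole numbers.

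Genes were filtered with edgeR's filterByExpr (minimum count 10), scaled by TMM and fitted in one quasi-likelihood model of 4 group means with edgeR 4.0.16 in R 4.3.3 (8 residual degrees of freedom, common dispersion 0.0213). Genes were called at a log2 fold change beyond 1 in either direction where the *p* adjusted by the Benjamini-Hochberg method was under 0.05. Where no library of a group exceeded 3 counts, folds are lower bounds, with that group set at 3 counts per library. Such floors cover counting error only. Totals ran from 16546027 to 31534284 over the 12 libraries. The model was tested on simulated counts with known fold changes.

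Genes were named by rule: *lpin-1*, the 12 largest increases and decreases with at least 50 counts and no overlap, up to 3 called members of each list (the most abundant where none was called), the 4 largest departures in each direction, and the 4 largest opposite single differences. This gave 152 genes, and 21 more were chosen after their values were seen. The members and lists were chosen with earlier results of these data known. Alternatives were RLE scaling, library totals, DESeq2 1.42.0, a prior count of 2, no filter, at least 10 counts required per library, the replicate number as a block, only the 6 libraries compared, a test against a 2-fold change, the adjusted *p* alone, an interval of 0.5, and each library left out. Calls from 2 replicate numbers with the departure in the third, and summed copies, were added after the data were seen. Sequences were not used here.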

Additional observations from a re-analysis of the deposited data

Results flagged for a closer look

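In 29 of the 173 named genes the joint difference departed from the sum of the single differences at an adjusted *p* under 0.05 (quasi-likelihood test of edgeR, Benjamini-Hochberg method over all tested genes). Over all tested genes there were 236 (1.61%). Some genes were named for their departure and 21 after their values were seen, so these shares cannot be compared. A departure is a fitted difference with glucose that is not the same on *lpin-1* and on control RNAi. For copies that share reads, the summed counts given below did not always keep it. In 18 of the 29 genes the departure stayed under that threshold whichever library was left out.

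Those that stayed, among the genes described above, were *T19B10.5* (4.27), *Y48E1B.8* (4.05), *dod-24* (2.74), *cyp-13B1* (2.54), *col-124* (2.49), *tyr-2* (2.1), *lips-10* (1.49), *col-19* (1.36), *pck-1* (1.26), *sams-1* (1.23), *fat-7* (−0.96), *hsp-43* (−1.21), *fat-5* (−1.23), *acs-2* (−1.28) and *cpr-1* (−2.76). The glutathione *S*-transferase gene *gst-13* fell from 193, 144 and 193 CPM to 30.7, 27.9 and 26.8 CPM with both perturbations and had a departure of 1.28. *ttr-26*, a transthyretin-related gene, rose from 5.88, 4.29 and 6.23 CPM to 63.7, 82.7 and 77.0 CPM, with a departure of −1.39. The fitted departure of the *hsp-16.48* copy WBGene00002020 was −9.41, but the copies share reads and the control libraries of this one were at 0 counts, and the summed copies gave 0.31 (adjusted *p* = 0.90).

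The remaining 11 departures lost that threshold in at least 1 fit without a library. That of *nhr-74* was 5.22, which is a fitted value and no bound, since *lpin-1* RNAi alone left at most 2 counts in a library, and it was at an adjusted *p* of 0.0605 (4.97) without replicate 1 of the doubly perturbed worms. *ins-33* (1.98) was lost without *lpin-1(RNAi)* control-diet replicate 3 (1.84) and without replicates 1 (1.86) and 3 (1.79) of the doubly perturbed worms, and *dod-17* (1.58) without the same 3 libraries (1.45, 1.46 and 1.34). *far-5* (−1.57) was lost without control replicate 1 (−1.505), *control(RNAi)* glucose replicates 1 (−1.596) and 3 (−1.47) and replicate 1 of the doubly perturbed worms (−1.63). The *pud-2.2* copy WBGene00017490 (2.65) was lost without *lpin-1(RNAi)* control-diet replicate 1 (2.35) and *control(RNAi)* glucose replicates 1 (2.58) and 3 (2.52), and *pud-1.2* (2.27) in 6 of 12 fits that leave out a library. The summed *pud-1* copies gave 2.30 (adjusted *p* = 0.023), but the summed *pud-2* copies gave 1.98 and missed the threshold (adjusted *p* = 0.0888). *F45D11.14* (4.33, with 0 counts in 2 of the 3 libraries with *lpin-1* RNAi alone) was lost in 7 of the 12 fits, at values of 3.68 to 12.3 and adjusted *p*-values up to 0.101. For other genes the value moved little while the call was lost in most fits. *ckb-2* (−0.93) was lost in 8, at −1.11 to −0.79 and adjusted *p*-values up to 0.116, and with library totals alone (adjusted *p* = 0.0512). *vit-3* (1.49) was lost in 9, at 1.28 to 1.69 and up to 0.123, and *spp-12* (6.68, with at most 3 counts in each control library) in 9, at 6.26 to 7.19 and up to 0.308. *irg-3* (−1.02) was lost in 11, at −1.24 to −0.82 and up to 0.145, and with RLE scaling (adjusted *p* = 0.0555), library totals alone (0.0625) and at least 10 counts in every library (0.0506). Reads of *vit-3* were divided, and the summed counts of *vit-3*, *vit-4* and *vit-5* had a departure of 0.90 that missed the threshold (adjusted *p* = 0.279).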

How the results depend on the processing

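No called value changed sign under any alternative run. Of 153 named genes called in the joint comparison, 141 stayed called with each library left out and in each of the 6 to 8 other fits scored per gene, and 128 passed the test against a 2-fold change, which was counted apart. DESeq2 gave 103 departures lower than the sum and 275 joint calls with a departure, and without a filter 87 departures were lower. With at least 10 counts in every library 889 genes were up. A test against a 2-fold change left 689 up and 501 down. The adjusted *p* alone gave 2863 and 2738, with 3770 departure intervals within 1 log2 unit and a median departure of −0.071, and 92 called genes had an interval within 0.5 units. Calls from 2 replicate numbers gave median departures of −0.238, −0.1345 and −0.228 in the third.

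Leaving out 1 library gave 1161 to 1384 genes up and 839 to 1004 down, 75 to 123 departures higher and 33 to 128 lower, 103 to 213 joint calls with a departure, 669 to 849 intervals within 1 unit, median departures of −0.2788 to −0.1504 and *lpin-1* values of −0.63 to −0.46. Departures lower numbered 128 without *lpin-1(RNAi)* control-diet replicate 2 and 33 without *control(RNAi)* glucose replicate 3, and joint calls with a departure 108 without *control(RNAi)* glucose replicate 1 and 103, with 75 higher, without replicate 1 of the doubly perturbed worms. The causes were not tested.

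Over all 4 groups, the deviations of same-numbered libraries had correlations across genes of 0.037 to 0.53 (mean 0.22, 18 pairs), against −0.42 to 0.17 (mean −0.11, 36 pairs) for different numbers. For controls and doubly perturbed worms they were 0.037 to 0.28 over 3 pairs, and replicate 1 of the doubly perturbed worms correlated best with control replicate 3 (0.098). Deviations were taken from group means, which pulls correlations for different numbers below 0 where those for same numbers are above 0. The different-number values are therefore no separate reference. All 18 same-number correlations were above 0, though not every one was over 0.1, and the labels name no shared culture or day. The numbers were therefore not taken as pairs, although such a link was not excluded. With the replicate number as a block, 1415 genes were up, 948 down, 104 departures lower and 279 joint calls had a departure, and *rpl-29* was at −0.9998, just short of a call.

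The medians of the Krebs cycle, glycolysis, gluconeogenesis and glyoxylate, triacylglycerol synthesis, trehalose and glycogen, and lipid binding lists changed sign with library totals alone, and that of the elongases with RLE, so no direction is given for them. At 3 libraries per group the median half-width of the departure interval was 0.74 over called genes, which limits what can be said of additivity.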

Other observations

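Other gene groups were also counted under both perturbations. The vacuolar proton pump, which acidifies lysosomes and the gut lumen, had 6 of 20 *vha* genes downregulated and none upregulated, all 20 were below 0 and 18 were lower at the adjusted *p* alone, with a median log2 fold change of −0.79. *vha-6* was the lowest at −2.26. All 69 tested *mrpl* and *mrps* genes, which encode proteins of the mitochondrial ribosome, were below 0, and 63 were lower at the adjusted *p* alone, with a median of −0.53 and a range of −0.93 to −0.18. Both groups were singled out after the values were seen.

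Hedgehog-related genes were divided, with 12 of 52 up and 12 down. *grd-4* fell by 5.01 and *ptr-22* and *ptr-25*, which encode patched-related proteins, rose by 5.82 and 4.09. Of 50 transthyretin-related genes 7 rose and 6 fell, and *ttr-44*, which overlaps *R11G10.3* on the opposite strand, fell by 3.23 from 21.0, 22.5 and 29.5 CPM to 2.26, 2.89 and 2.61 CPM. Histone genes had 11 of 46 up, of which 6 had different counts and the rest were copies of these, and 3 down, and *his-38* fell by 2.71. Of 7 *irg* genes, named for their response to infection, 2 rose and 2 fell: *irg-2* went from 1.013, 0.582 and 2.13 CPM to 10.1, 12.1 and 12 CPM, and *irg-5* fell by 1.79. Of 23 astacin protease genes 3 fell, *nas-3* by 4.72. Over all tested genes, 9.08% were called up and 6.17% down. The few transthyretin-related and astacin calls therefore do not show that these families moved.

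Major sperm protein genes had 1 of 42 up and 1 down, with a median of −0.85 and summed levels of 204 to 579 CPM in the controls and 169 to 309 CPM with both perturbations, which overlap. Of 6 neuronal markers 1 was called up, the synaptobrevin gene *snb-1* at 1.04, and their summed level was 211 to 237 CPM in the controls and 343 to 399 CPM with both perturbations, without overlap. Their median was 0.23, with 2 of the 6 higher and none lower at the adjusted *p* alone, so the sum does not show that these markers rose as a group. The *snb-1* call was lost without a filter (0.99), with only the 6 libraries compared (0.99), without control replicate 3 (0.997), without any 1 of the 3 libraries with *lpin-1* RNAi alone (0.99) and without replicate 2 of the doubly perturbed worms (0.92). Single calls were *spe-9* (2.17) among 6 sperm markers and *elt-7* (1.09) among 7 genes listed as embryonic markers, whose median was −0.27. The *elt-7* call does not show a difference in embryos. *nhr-73* (−3.94, with divided reads in 3 libraries), the 1 tested marker of glia and seam, was also called. *spe-9* overlaps *C17D12.5* on the opposite strand, and its call was lost without control replicates 1 (1.86) or 3 (1.78) or replicate 1 of the doubly perturbed worms (1.87), and that of *elt-7* without their replicate 3 (0.97). Of 17 eggshell genes and 5 body wall muscle markers, 0 were called with edgeR or DESeq2 and 0 had an unadjusted *p* under 0.05. None of 5 pharyngeal markers was called by either tool, with 3 at an unadjusted *p* under 0.05, and *myo-1* gave 0.93 (adjusted *p* = 0.054 from edgeR). None of 5 germ line markers was called by either tool, with 2 at an unadjusted *p* under 0.05.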
